A study of Mus musculus with 20 samples.

Results

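CTCF regions found in a single peak list of TDG knockout (TDG KO) mouse embryonic stem cells were described here. The members were chosen from the deposited CTCF peak lists: peaks of the 4 lists that overlapped by 1 bp or more were merged into regions, and a region was kept if all its peaks came from 1 list and that list was a TDG KO list. Of 54729 regions, 7104 were kept, 3525 only in the list of replicate 1 and 3579 only in that of replicate 2. The lists are called TDG KO list 1 and 2 and WT list 1 and 2 by their replicate numbers, and the kept regions are called single-KO-list regions. Each of them consists of 1 peak. For comparison, 5885 regions were in both TDG KO lists and no WT list, 32740 were in all 4 lists (shared regions), and 1830 were in a single WT list. Presence in a list chose the members, so list membership, score and width are given as descriptions with no test.

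TDG KO and wild-type (WT) embryonic stem cells, both of a 129 background, were compared by CTCF ChIP-seq and RNA-seq, each with 2 libraries per genotype. The cells of both genotypes came from the same outside laboratory and were cultured with mitotically arrested mouse fibroblasts as feeders, in medium that held serum and LIF. Feeders were then removed by serial plating. CTCF was precipitated from formaldehyde-fixed cells with 1 anti-CTCF antibody (CST), and RNA was made into TruSeq mRNA libraries. The labels name no separate cultures, so the spread between replicates may be technical. Each genotype may also be 1 cell line, so that genotype and line cannot be told apart. Tdg RNA was 5.50 and 4.74 FPKM (fragments scaled by transcript length and by library size) in the TDG KO libraries, against 28.1 and 30.4 FPKM in the WT libraries (log2 change -2.31). Among the CTCF lists, TDG KO list 1 stood apart on chromosome 11, with 906 single-list regions, and WT list 1 on the distal X chromosome, with 642 on the whole chromosome. Without chromosome 11 the members numbered 6064 and the regions in a single WT list 1825, and without the X chromosome 6920 and 1138.

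CTCF is a zinc finger protein that binds a long, partly fixed DNA motif, stops the loop-extruding cohesin ring and so sets the borders of chromatin loops, also in embryonic stem cells. Methylation of cytosine within the motif is known to weaken binding at many sites. TET enzymes oxidise methylated cytosine, and TDG cuts out the last oxidised forms, 5-formylcytosine and 5-carboxylcytosine, which therefore build up in cells without TDG. The series asks whether 5-carboxylcytosine helps CTCF to bind weak sites.

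Promoter sequences are shown first because they are the places where the sequence under a single-KO-list region could be read. They are windows of RefSeq (GRCm38.p6, the mm10 build), written 5′ to 3′ on the strand of the gene. Capitals mark the CTCF core, searched on both strands and spelled as CC, any 3 bases, AG, any 2 bases and GGC. The first 4 are the windows with the highest score percentile that hold a core inside the region, picked after their values were seen. The window of Tex19.1 belongs to the member gene whose RNA rose furthest among those with a mean of at least 5 FPKM. It holds no core as spelled here, although gctgtagggggc, within the region, differs from that spelling at the first base only. Gm39566 is on chr11:69815295-69815594, minus strand, and Gm36826 on chr17:85157806-85158105, plus strand. Gm10044 is on chr14:7791497-7791796, minus strand. Sh3glb2, which encodes an endophilin of membrane trafficking, is on chr2:30359267-30359566, minus strand, and its core lies on the strand opposite to the gene. Tex19.1 is on chr11:121145893-121146192, plus strand.
Gm39566: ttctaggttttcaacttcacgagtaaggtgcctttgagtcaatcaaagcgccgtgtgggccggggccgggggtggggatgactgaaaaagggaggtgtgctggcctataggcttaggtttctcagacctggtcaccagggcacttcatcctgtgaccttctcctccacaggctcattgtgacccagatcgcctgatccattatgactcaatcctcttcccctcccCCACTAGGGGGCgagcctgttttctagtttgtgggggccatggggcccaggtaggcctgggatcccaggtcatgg
Gm36826: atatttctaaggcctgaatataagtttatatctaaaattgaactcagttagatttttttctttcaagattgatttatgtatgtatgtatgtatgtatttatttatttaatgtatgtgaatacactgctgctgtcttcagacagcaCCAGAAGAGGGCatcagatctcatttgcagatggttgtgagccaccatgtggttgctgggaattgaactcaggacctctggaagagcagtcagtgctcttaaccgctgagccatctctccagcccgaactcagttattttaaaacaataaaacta
Gm10044: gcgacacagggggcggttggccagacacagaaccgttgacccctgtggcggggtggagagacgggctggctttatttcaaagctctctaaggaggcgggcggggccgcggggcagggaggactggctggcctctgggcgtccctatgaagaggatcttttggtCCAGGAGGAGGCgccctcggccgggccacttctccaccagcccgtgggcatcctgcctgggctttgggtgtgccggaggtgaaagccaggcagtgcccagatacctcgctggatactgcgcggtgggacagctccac
Sh3glb2: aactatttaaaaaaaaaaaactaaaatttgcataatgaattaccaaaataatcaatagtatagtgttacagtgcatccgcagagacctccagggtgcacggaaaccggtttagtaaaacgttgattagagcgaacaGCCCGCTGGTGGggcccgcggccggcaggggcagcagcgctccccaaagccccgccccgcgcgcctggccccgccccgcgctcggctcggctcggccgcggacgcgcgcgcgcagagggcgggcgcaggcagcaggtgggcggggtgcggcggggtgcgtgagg
Tex19.1: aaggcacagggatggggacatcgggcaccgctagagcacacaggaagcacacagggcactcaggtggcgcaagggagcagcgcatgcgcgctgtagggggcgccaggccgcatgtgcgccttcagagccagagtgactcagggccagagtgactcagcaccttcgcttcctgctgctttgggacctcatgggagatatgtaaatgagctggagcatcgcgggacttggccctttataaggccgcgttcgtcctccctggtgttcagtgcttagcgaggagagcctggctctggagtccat

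The 4 windows with a core differ in base composition. The Gm36826 window holds 2 CG dinucleotides, the Gm39566 window 7, the Gm10044 window 18 and the Sh3glb2 window 33. The Tex19.1 window holds 16. The region at Gm39566 (chr11:69815215-69815483, TDG KO list 1) stood at percentile 39.0 of the scores in its list, and the regions at Gm36826, Gm10044 and Sh3glb2 stood at 27.4, 26.2 and 22.8. Sh3glb2 RNA was 16.7 and 20.3 FPKM in TDG KO, against 20.5 and 17.9 FPKM in WT. These values overlap between the genotypes, and the log2 change of -0.06 was not called (SE 0.11; adjusted p = 0.682 in limma with Benjamini-Hochberg adjustment).

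Single-KO-list regions numbered 3525 and 3579 in the TDG KO lists, against 1201 and 629 regions found only in WT list 1 or only in WT list 2. The TDG KO lists were also longer, with 48514 and 48833 peaks, against 38303 and 37099 peaks in the WT lists. As a share of the list, single regions made up 7.27% and 7.33% of the TDG KO lists, against 3.14% and 1.70% of the WT lists. The mean was 3552 ± 38.2 regions per TDG KO list and 915 ± 404 per WT list (SD, n = 2 each). Counts of both TDG KO lists lay above those of both WT lists.

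The direction of this difference depended on the length of the lists. When each list was reduced to its 37099 strongest peaks, the length of the shortest, single-list regions numbered 1153 and 1010 in TDG KO, against 1899 and 1838 in WT. The ratio of TDG KO to WT single-list regions was 3.88 with the lists as deposited and 0.579 with lists of equal length. This cut drops more TDG KO than WT peaks by construction. A WT peak whose weak TDG KO partner is dropped can then count as single, so the reversal is partly set by the procedure. Without WT list 1 the TDG KO lists held 3760 and 4013 single-list regions, against 723 in WT list 2, and without WT list 2 they held 3921 and 3833, against 1299 in WT list 1. No source used here gives the read depth, peak threshold or control library of the 4 lists, and their part in the counts was not tested.

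Single-KO-list regions sat low in the score ranking of their own list. The median score percentile was 7.56 (quartiles 3.22 and 13.7) in TDG KO list 1 and 8.11 (3.45 and 14.4) in TDG KO list 2. Regions in both TDG KO lists and no WT list had medians of 18.1 and 17.8 in the same lists, and shared regions 66.0 and 66.3. Regions in a single WT list had medians of 4.77 in WT list 1 and 5.67 in WT list 2. Low rank was therefore a feature of single-list regions in all 4 lists.

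**Figure D1:**
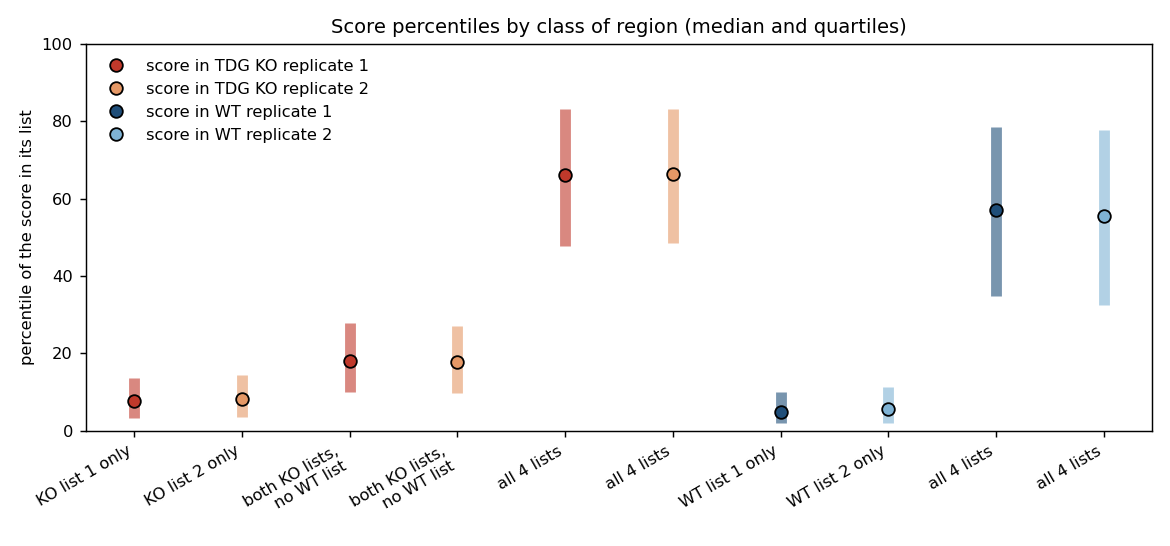
Percentile of the authors' peak score within its own list, by class of region and list; points are medians and bars span the quartiles. Single-KO-list regions have medians of 7.56 and 8.11, regions in both TDG KO lists 18.1 and 17.8, and shared regions 66.0 and 66.3 in the TDG KO lists.

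No single-KO-list region reached the upper part of its list: the highest stood at percentile 40.04 in TDG KO list 1 and 44.5 in TDG KO list 2. Their median widths were 185 bp and 174 bp, against 235 bp for regions in both TDG KO lists, 379 bp for shared regions, and 190 bp and 181 bp for regions in WT list 1 or WT list 2 only. Shared regions are unions of several peaks, which widens them by construction.

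The highest-ranked single-KO-list regions lay in gene bodies or between genes more often than at starts. In TDG KO list 1 the highest was chr6:122519229-122519677 in Mfap5, a gene of elastic microfibrils, at percentile 40.04. Next came chr14:79003681-79003870 in Vwa8 at 39.8, the region at the start of Gm39566, and chr11:85012977-85013410 in Usp32, a deubiquitinase gene, at 38.9. In TDG KO list 2 the highest was chr7:145340907-145341419, in no annotated gene and 26072 bp from the start of Mrgprd, at percentile 44.5. It was followed by chr2:24182067-24182285, 4191 bp from the start of Il1f9, at 42.3. The next, chrX:52587734-52587952, lies in Gpc3, which encodes a cell-surface proteoglycan, at 41.6, and chr4:135887862-135888076 lies 7113 bp from the start of the cannabinoid receptor gene Cnr2 at 40.9. Of these 8 regions, that at Gm39566 was the only one within 1 kb of a start.

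The lowest-ranked members lay in Ranbp17 (chr11:33506872-33507076) and Wnt3a (chr11:59275141-59275313), both at percentile 0.023 of TDG KO list 1. In TDG KO list 2 they lay in Rc3h1 (chr1:160935669-160935876) and Slfn5 (chr11:82959349-82959519), at percentile 0.0041. These 4 stood at the foot of their lists, where the lowest scores were 3.54 and 3.60 in the TDG KO lists and 3.69 and 3.70 in the WT lists. No source used here states what the score measures.

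Few single-KO-list regions missed being shared by a small gap. Of the 7104, 25 (0.352%) had a peak of the other TDG KO list within 50 bp, the smallest gap being 3 bp. Just outside the rule, 5 of 5874 regions with 1 peak from each TDG KO list overlapped by under 50 bp, and the smallest overlap was 5 bp. The median overlap there was 178 bp. A peak of any other list lay within 500 bp of 10.3% of the regions of TDG KO list 1 (364 regions, exact 95% binomial interval 9.34 to 11.4%) and of 8.86% of those of TDG KO list 2 (317 regions, 7.95 to 9.84%). The median gap to the nearest such peak was 8054 bp and 10309 bp.

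Most single-KO-list regions lay away from gene starts. Within 1 kb of a RefSeq gene start lay 5.65% of the placed regions of TDG KO list 1 (194 of 3431, exact 95% binomial interval 4.90 to 6.48%) and 6.49% of those of TDG KO list 2 (225 of 3467, 5.69 to 7.36%). For regions in both TDG KO lists the share was 5.62% (5.04 to 6.25%) and for shared regions 8.19% (7.90 to 8.50%). It was 7.54% (6.10 to 9.20%) for regions of WT list 1 only and 1.94% (1.01 to 3.37%) for those of WT list 2 only. On autosomes alone, single-list regions had shares of 12.4% in WT list 1 and 1.94% in WT list 2. There the TDG KO lists had 5.64% and 6.57%. The 2 WT lists thus differed from each other by more than the TDG KO lists did. The intervals cover counting error only and treat neighbouring regions as independent.

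Gene bodies held 55.3% and 51.6% of the single-KO-list regions, and 39.0% and 41.9% lay between genes, against 52.6% and 39.2% of the shared regions. The median distance to the nearest start was 18171 bp for TDG KO list 1 and 22600 bp for TDG KO list 2, and 17795 bp for shared regions. The 206 single-KO-list regions on chromosome 18 were not placed, because the promoter table used here has no entries for it.

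The single-KO-list regions of the replicates were spread unevenly over the chromosomes. Chromosome 11 held 906 of the 3525 regions of TDG KO list 1 (25.7%, exact 95% binomial interval 24.3 to 27.2%) and 134 of the 3579 of TDG KO list 2 (3.74%, 3.15 to 4.42%). It held 2 of the single-list regions of WT list 1 and 3 of those of WT list 2. Per 100 shared regions of the chromosome, there were 39.8 single-list regions in TDG KO list 1 and 5.88 in TDG KO list 2. On the other 18 autosomes TDG KO list 1 ranged between 5.70 and 15.4 (median 7.97) and TDG KO list 2 between 9.58 and 14.5 (median 11.3). Chromosome 11 was thus the highest autosome in TDG KO list 1 and the lowest in TDG KO list 2.

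**Figure D2:**
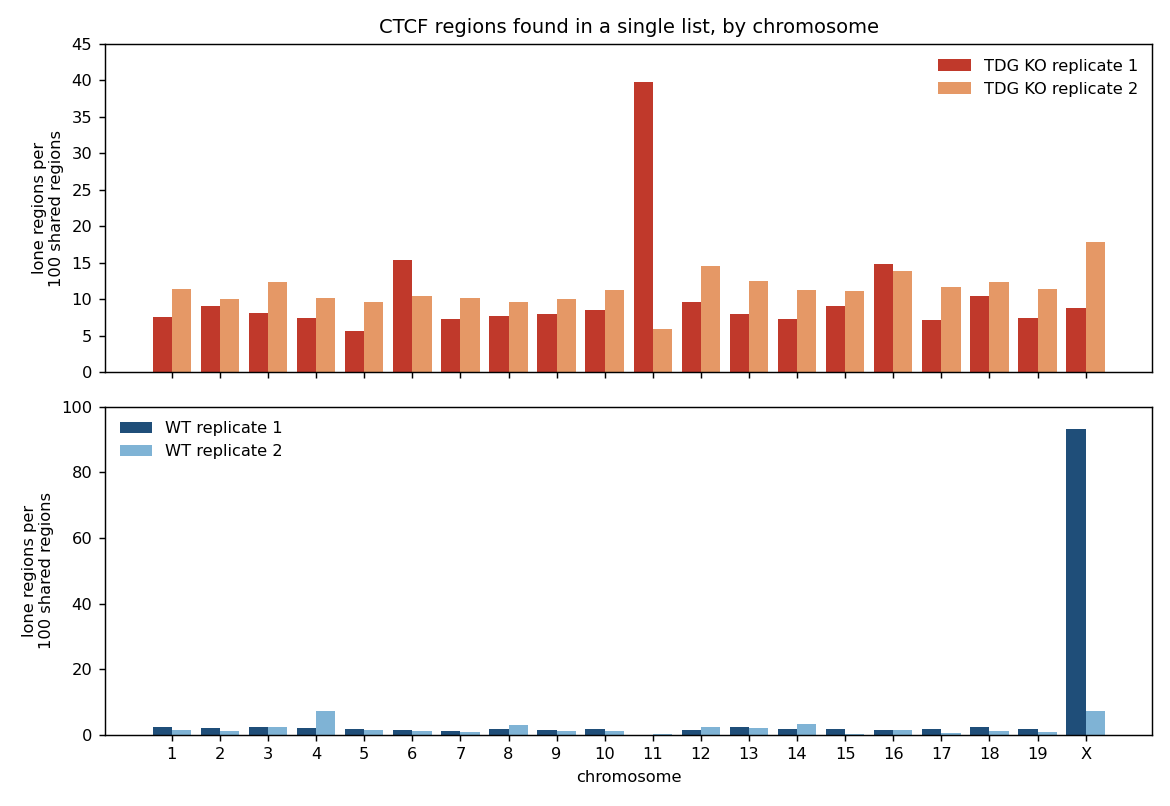
Regions found in a single list per 100 regions shared by all 4 lists, by chromosome, for the TDG KO lists (upper panel) and the WT lists (lower panel, with a wider axis); chromosome Y, with 22 shared regions, is left out. Chromosome 11 stands at 39.8 in TDG KO list 1 and 5.88 in TDG KO list 2, and the X chromosome at 93.0 in WT list 1.

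The excess of TDG KO list 1 spread along the whole of chromosome 11. In each of its 13 windows of 10 Mb, TDG KO list 1 had more single-list regions than TDG KO list 2. The range was 16 to 116 per window in TDG KO list 1 and 2 to 18 in TDG KO list 2. Regions in both TDG KO lists and no WT list were also dense there, at 890, or 39.1 per 100 shared regions, against 13.4 to 26.5 on the other 18 autosomes. The 906 regions had a median score percentile of 5.91 and a median width of 197 bp. A peak of another list lay within 500 bp of 145 of them (exact 95% binomial interval 13.7 to 18.6%), against 219, or 8.36%, of the regions of TDG KO list 1 on other chromosomes (7.33 to 9.49%). With lists of equal length, chromosome 11 held 272 of 1153 single-list regions of TDG KO list 1 (23.6%) and 81 of 1010 of TDG KO list 2 (8.02%).

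Shared regions on chromosome 11, which are not members, also differed in rank. Their median score percentile was 88.1 in TDG KO list 1 and 80.2 in TDG KO list 2, against 54.4 in WT list 1 and 60.5 in WT list 2. On the other 18 autosomes the medians were 62.1 to 69.0 and 63.3 to 69.9 in the TDG KO lists, and 50.8 to 60.8 and 50.6 to 58.3 in the WT lists. Chromosome 11 therefore stood above every other autosome in both TDG KO lists, and further in list 1. In the WT lists it stood within the range of the other autosomes in WT list 1 and above it in WT list 2. Of all peaks, chromosome 11 held 9.36% and 7.74% in the TDG KO lists, against 6.32% and 7.21% in the WT lists.

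**Figure D3:**
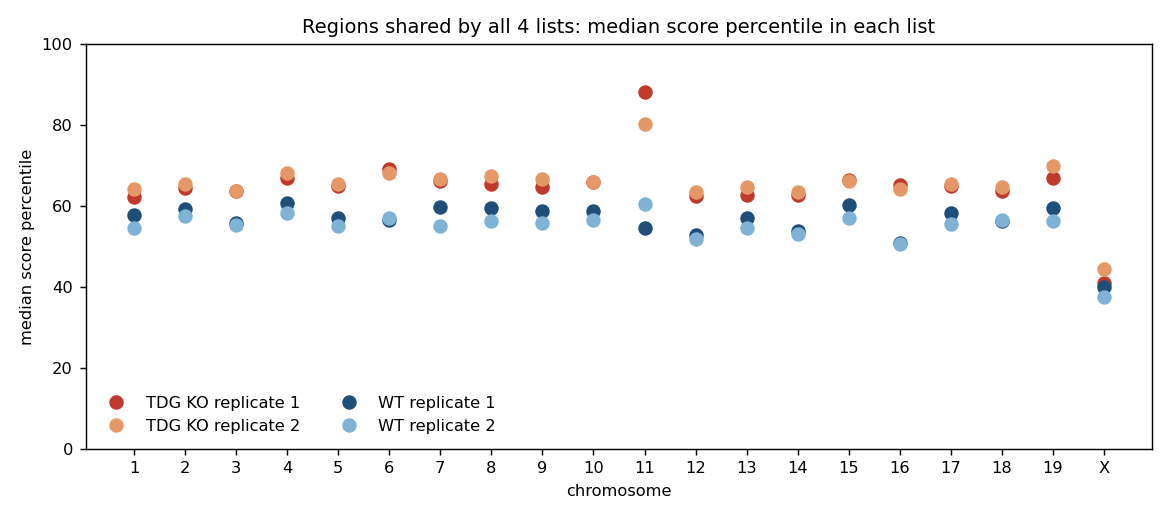
Median score percentile of the regions shared by all 4 lists, by chromosome, 1 point per list, each within its own list. On chromosome 11 the TDG KO lists stand at 88.1 and 80.2, and the WT lists at 54.4 and 60.5.

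RNA of chromosome 11 genes also differed between the genotypes, in other libraries. Relative to the WT mean, the median tested gene of chromosome 11 was higher by 0.36 and 0.39 in RNA replicates 1 and 2 of TDG KO on the log2(FPKM + 1) scale. The 18 other autosomes had medians between -0.13 and 0.02 in replicate 1 and between -0.16 and 0.03 in replicate 2. Of 1028 tested genes on chromosome 11, limma with Benjamini-Hochberg adjustment called 728 at an adjusted p under 0.05 (70.8%), 674 of them higher (65.6%) and 54 lower (5.25%). RNA was near equally high in both TDG KO libraries. Single-list regions were dense in TDG KO list 1, regions in both TDG KO lists were dense as well, and shared regions ranked high in both. The replicate numbers of the CTCF and RNA libraries are not known to match. Whether the excess of regions and the higher RNA have a common source was not tested.

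A shorter stretch with the same features lay on chromosome 6, between 110 and 130 Mb, and was picked out after the values were seen. It held 137 single-list regions of TDG KO list 1 and 24 of TDG KO list 2, or 36.5 and 6.40 per 100 shared regions. On the rest of chromosome 6 the values were 9.65 and 11.5. That rest includes 100 to 110 Mb, where they were 29.8 and 17.0 and 8 of 14 tested genes were called higher, so the edge at 110 Mb is approximate. The WT lists had 0 and 1 single-list regions in the stretch. Its shared regions had median percentiles of 88.8 and 79.5 in the TDG KO lists, against 51.4 and 57.1 in the WT lists. Of 142 tested genes there, 99 were called higher and 7 lower in TDG KO RNA, with a median log2 change of 0.41. On the rest of the chromosome 79 of 420 were called higher and 140 lower, and over all tested genes 24.4% were called higher. At the start of chromosome 16, shared regions also stood high in the TDG KO lists. From 0 to 10 Mb their median percentiles were 84.7 and 78.5 in the TDG KO lists, against 39.0 and 38.4 in the WT lists. There were 20 and 11 single-list regions in the TDG KO lists there and 37 of 39 tested genes were called higher. From 10 to 20 Mb there were 25 and 14 regions, or 19.4 and 10.9 per 100 shared regions, and 44 of 88 genes were called higher.

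Outside chromosome 11 and the sex chromosomes, the counts were 2542 and 3282 in the TDG KO lists, against 551 and 574 in the WT lists. Of the 574 in WT list 2, 143 lay on chromosome 4 between 140 and 150 Mb, where WT list 1 had 11 and the TDG KO lists had 26 and 19. The X chromosome held 61 and 123 single-list regions of the TDG KO lists, against 642 and 50 of the WT lists, so that WT list 1 stood apart there. Of those 642, 288 lay between 150 and 160 Mb and 351 between 160 and 170 Mb, where the TDG KO lists held 8 and 8, and 0 and 1. Between 160 and 170 Mb shared regions had median percentiles of 26.5 and 45.3 in the TDG KO lists, against 92.2 and 81.7 in the WT lists, and 29 of 30 tested genes were called lower in TDG KO RNA (median log2 change -1.38). Without the X chromosome the ratio of TDG KO to WT single-list regions was 6.08, and without chromosome 11 it was 3.32. Both values were chosen after seeing the data. On chromosome Y there were 16 and 40 regions in the TDG KO lists, against 6 and 2 in the WT lists.

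Windows of RefSeq promoters, 250 bases before to 50 after a start, allowed a look at the sequence of a small share of the members. Single-KO-list regions overlapped 153 such windows, of 143 genes, and 25 windows held the CTCF core (16.3%, exact 95% binomial interval 10.9 to 23.2%). Some windows overlap each other or share a region, whereas the intervals treat windows as independent and may be too narrow. In 20 of the 25 windows the core lay within the region itself. This count was made for the members only, and the shares compared here refer to whole windows. A window can overlap its region by as little as 2 bp. The share was 13.6% (11 of 81, 6.98 to 23.0%) for TDG KO list 1 and 19.4% (14 of 72, 11.1 to 30.5%) for TDG KO list 2. It was 30.4% (41 of 135, 22.8 to 38.9%) for regions in both TDG KO lists and 37.4% (563 of 1504, 34.98 to 39.9%) for shared regions. For regions of WT list 1 only it was 24.2% (8 of 33, 11.1 to 42.3%), an interval that overlaps that of the members, and WT list 2 had 4 windows. Of all 32851 windows 8.61% held the core. Windows of the 2 TDG KO lists pooled thus lay between all promoters and those of shared regions. Their interval overlapped that of regions in both TDG KO lists by less than 1 percentage point. For TDG KO list 1 alone the interval included the share of all windows. The core is rich in C and G, and the median share of these bases was 60% in single-KO-list and in shared windows, against 52.7% in all windows. The part of base composition in the core share was not tested.

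With a stricter core, a subset of the first with A right after the opening CC, 8 of 153 single-KO-list windows had a match (5.23%, 2.28 to 10.0%), against 15.6% of shared windows and 2.43% of all windows. By list it was 2 of 81 windows (2.47%) for TDG KO list 1, near the share of all windows, and 6 of 72 (8.33%) for TDG KO list 2. The windows were rich in CG dinucleotides, the sites that carry methylation and its oxidised forms. The median was 17 per window for TDG KO list 1 and 20.5 for TDG KO list 2, against 16 for regions in both TDG KO lists, 19 for shared regions and 7 for all windows. CG content did not set single-KO-list windows apart from shared ones. Besides those printed above, windows with a core inside the region included those of Limk1, an actin-regulating kinase, Ep300, a histone acetyltransferase whose window held 2, Coro2b, Ccdc88a and Gpr3. A match is only a description of the letters, and windows without one can hold other forms of the motif.

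**Figure D4:**
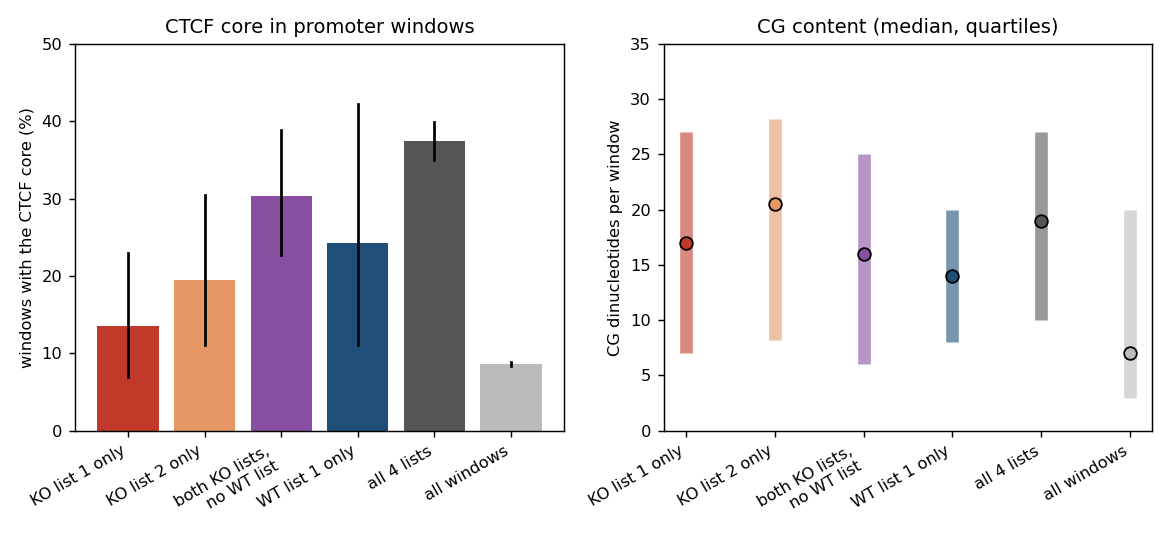
Left, percent of promoter windows of each class that hold the CTCF core, with exact 95% binomial intervals; right, CG dinucleotides per window, with points for medians and bars for quartiles. The core was in 13.6% and 19.4% of single-KO-list windows, 30.4% of windows of both TDG KO lists, 37.4% of shared windows and 8.61% of all windows; WT list 2, with 4 windows, is left out.

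The 419 single-KO-list regions at a start touched 463 genes, 354 protein coding and 109 of long noncoding RNA. For 59 genes the start itself lay inside the region, and 63 genes (13.6%) also had a shared region at a start. RNA values were matched for 382 genes, and 237 had a mean of at least 1 FPKM and were tested, while 145 fell below that filter. The RNA took no part in choosing the regions. Of the 237, limma with Benjamini-Hochberg adjustment called 141 at an adjusted p under 0.05 (59.5%), beside 54% of all 12035 tested genes. It called 77 higher in TDG KO (32.5%, beside 24.4% of all) and 64 lower (27.0%, beside 29.5% of all). TDG KO and WT values stood apart, with no overlap, in 79.3%, beside 78.8% of all. The median log2 change was -0.00073, beside -0.044 over all tested genes, so the share called and the median of the member genes lay near the background. At a mean of at least 5 FPKM, 48 of 158 member genes were called higher and 52 lower, beside 2038 and 2909 of all 8469 tested genes. Calls of lower RNA thus outnumbered those of higher RNA in both sets under this filter.

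Calls of higher RNA were more frequent on chromosome 11, among the member genes as among all genes. Of 41 tested member genes on chromosome 11, 24 were called higher and 4 lower, 68.3% in all, beside 70.8% of all tested genes there (65.6% higher and 5.25% lower). Values of the genotypes stood apart in 87.8%, beside 86.7%. Of the 196 on other chromosomes, 53 were called higher (27.0%, beside 20.6%) and 60 lower (30.6%, beside 31.8%), or 57.7% in all, beside 52.4%. There they stood apart in 77.6%, beside 78%. The median log2 change was 0.29 on chromosome 11 and -0.037 elsewhere, beside 0.37 and -0.075. The share called higher thus lay below the background on chromosome 11 and above it elsewhere, and this difference was not tested. The other chromosomes still include the stretch of chromosome 6 and the start of chromosome 16, where calls of higher RNA were also frequent and TDG KO list 1 held many members.

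Split by list, 42 of 109 tested genes of TDG KO list 1 were called higher (38.5%, beside 24.4% of all tested genes) and 27 lower (24.8%, beside 29.5%), with a median log2 change of 0.011. Of these, 21 higher and 3 lower calls were on chromosome 11, and on other chromosomes 21 of 72 were called higher and 24 lower, with a median of -0.10. For TDG KO list 2 it was 35 higher (27.3%) and 37 lower (28.9%) of 128, with a median of -0.0024. Genes at regions of both TDG KO lists had 42 of 155 called higher and 37 lower, with a median of -0.0024, and genes at shared regions 401 and 351 of 1418, with a median of 0.013. In these bulk samples, fewer cells that express a gene and less RNA per cell cannot be told apart.

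Genes are named here from those called, with a mean of at least 5 FPKM and no overlap between TDG KO and WT values. Among the 12 that rose furthest, Tex19.1, a germline and pluripotency gene that restrains retrotransposons, had 204.9 and 223.0 FPKM in TDG KO, against 73.2 and 78.5 FPKM in WT. Both TDG KO libraries were well above both WT libraries, and the log2 change was 1.48 (SE 0.071, limma, adjusted p = 2.22e-05). The region, chr11:121145860-121146067 in TDG KO list 1, ends 76 bp before the start and ranked at percentile 30.4. Tspan9, which encodes a tetraspanin of the cell membrane, had 21.9 and 20.5 FPKM in TDG KO, against 8.35 and 8.11 FPKM in WT, and lies in the stretch of chromosome 6. Plekha4, a phosphoinositide-binding protein, had 9.56 and 13.3 FPKM in TDG KO, against 4.36 and 3.88 FPKM in WT. It lies on chromosome 7, outside the stretches named above, and its log2 change was 1.26 (SE 0.14, limma, adjusted p = 0.00061).

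The other 9 of the 12 highest had log2 changes between 0.71 and 1.26. They were Mrps12, a protein of the mitochondrial ribosome (1.26), Nxn, a thioredoxin relative (1.05), Lzts2, a leucine zipper protein (0.88), Csrnp1, a nuclear protein (0.85), and Vgll4, a cofactor of TEAD factors (0.81). Git1, a GTPase-activating protein (0.78), Tmem11, a mitochondrial membrane protein (0.74), the kinase Map3k3 (0.74) and Naa60, an N-terminal acetyltransferase (0.71), completed them. Of the 12, 5 lie on chromosome 11 (Tex19.1, Nxn, Git1, Tmem11 and Map3k3) and 2 in the stretch of chromosome 6 (Tspan9 and Vgll4). Naa60 lies in the first 10 Mb of chromosome 16. Mrps12 and Tmem11 also had a shared region at a start. The promoter window of Map3k3 overlapped its region by 35 bp and held no core.

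Laptm5, a lysosomal membrane protein best known from blood cells, fell furthest. It had 24.1 and 23.5 FPKM in TDG KO, against 84.6 and 82.2 FPKM in WT, a log2 change of -1.77 (SE 0.058, limma, adjusted p = 6.25e-06). Its region, chr4:130912565-130912751 in TDG KO list 2, lay 565 bp from the start. Gabbr1, a subunit of the GABA-B receptor, had 10.5 and 7.58 FPKM in TDG KO, against 17.7 and 15.6 FPKM in WT, a log2 change of -0.83. In both genes the TDG KO values lay below both WT values, and the region at the start had been listed in 1 TDG KO library alone.

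The remaining 10 of the 12 lowest had log2 changes between -0.68 and -0.51. They included Hyls1, a centriole protein (-0.68), Ivns1abp, a kelch protein (-0.66), Tlk1, a kinase of chromatin assembly (-0.66), Swsap1, a protein of homologous recombination (-0.62), and Dek, a chromatin protein (-0.61). Dapk1, a death-associated kinase (-0.60), Tbc1d10b, a Rab GTPase-activating protein (-0.55), Eml3, a microtubule protein (-0.55), Hnrnph1, a splicing regulator (-0.53), and the transcription factor Klf8 (-0.51) were the others. Only Hnrnph1 of the 12 lies on chromosome 11, and it also had a shared region at a start. Regions at the 12 highest genes came from TDG KO list 1 in 10 cases and from TDG KO list 2 in 2. At the 12 lowest, 4 came from TDG KO list 1 and 8 from TDG KO list 2. The lists had 109 and 128 tested genes. All the highest genes on chromosome 11, in the chromosome 6 stretch and in the first 10 Mb of chromosome 16 had a region of TDG KO list 1. Most of all tested genes in those places were called higher. Off chromosome 11, 21 of 72 tested genes of TDG KO list 1 were called higher and 24 lower. A link between list and direction was not tested.

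**Figure D5:**
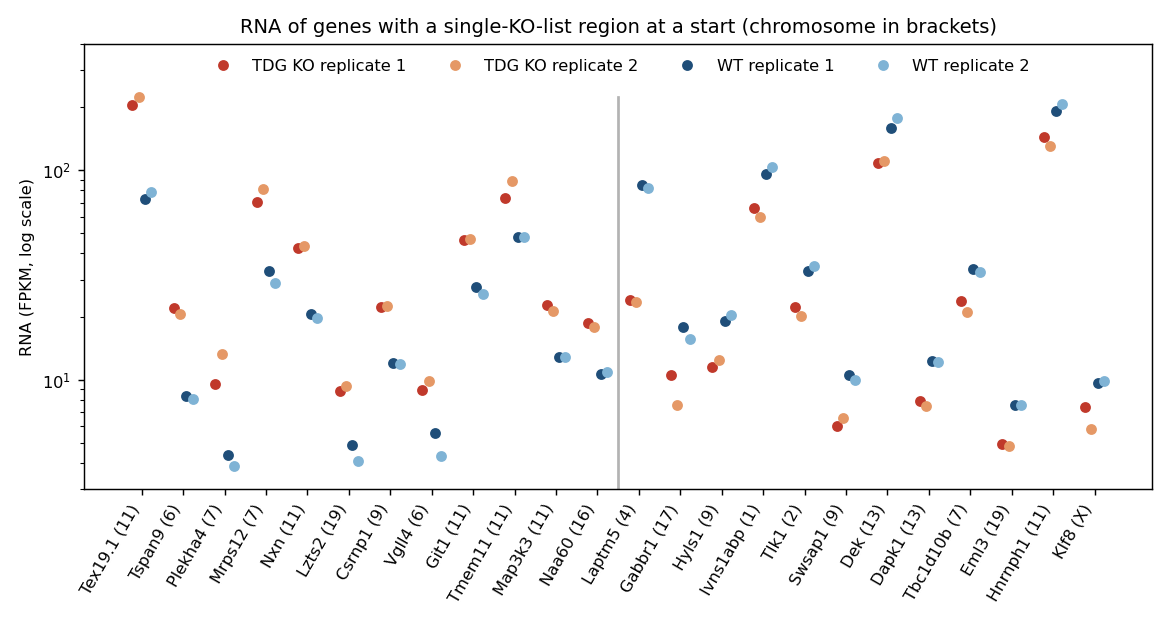
RNA in FPKM (log axis) of the 12 member genes with the highest log2 change (left of the line) and the 12 with the lowest (right), 1 point per library, with the chromosome in brackets. In all 24 the TDG KO points and the WT points do not overlap, as the naming rule required; Tex19.1 stands at 204.9 and 223.0 against 73.2 and 78.5, and Laptm5 at 24.1 and 23.5 against 84.6 and 82.2.

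Of 38 loci known for imprinting, X inactivation, pluripotency, cytosine modification or CTCF-bounded domains, 11 had a single-KO-list region within 10 kb. The share of all genes with a region that near was not counted, here or for the gene lists below. Such counts alone therefore show neither an excess nor a lack. Dppa3, which protects methylated DNA in the early embryo, held 1 of TDG KO list 1 (chr6:122629539-122629696). Its RNA was 57.8 and 61.9 FPKM in TDG KO, against 1.83 and 1.67 FPKM in WT, a log2 change of 4.47 (SE 0.074, limma, adjusted p = 7.14e-07). Nearby, Nanog, a pluripotency factor, had 3 regions, of which that of TDG KO list 1 at chr6:122713657-122713979 lies within the gene. Nanog RNA was 428.1 and 428.4 FPKM in TDG KO, against 331.5 and 359.5 FPKM in WT, a log2 change of 0.31 (SE 0.070, limma, adjusted p = 0.0097). Tuba3a, a testis tubulin with a region at chr6:125284371-125284532, also rose, by 3.91 on the log2 scale. These 3 loci lie within the stretch of chromosome 6.

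At loci of cytosine modification, Tet2, which oxidises methylated cytosine, held a region of TDG KO list 2 (chr3:133536624-133536816). Tet2 RNA was 10.4 and 7.72 FPKM in TDG KO, against 29.3 and 26.3 FPKM in WT, and fell by 1.53 on the log2 scale. Dnmt3a, which sets new methylation, held a region of TDG KO list 1 (chr12:3842903-3843093), and its RNA was 35.5 and 36.3 FPKM in TDG KO, against 12.3 and 12.9 FPKM in WT. The genes thus moved in opposite directions with a region of the same class. Ctcf itself held a region of TDG KO list 2 (chr8:105636646-105636852). Its RNA was 42.4 and 41.1 FPKM in TDG KO, against 48.8 and 52.5 FPKM in WT, and fell by 0.27 on the log2 scale (SE 0.064, limma, adjusted p = 0.012).

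Of the remaining loci, the imprinted long noncoding RNA Meg3 held a region of TDG KO list 1 (chr12:109543623-109543783). Meg3 RNA was 82.7 and 62.8 FPKM in TDG KO, against 71.0 and 49.5 FPKM in WT, which overlap, and was not called (log2 change 0.28, limma, adjusted p = 0.239). A single region of TDG KO list 2 (chrX:103481642-103481846) lies within both Xist and its antisense partner Tsix, which act in X inactivation. Hoxd13 had a region of TDG KO list 2 at a distance of 6423 bp, and Pcdhga1, in a cluster of protocadherin genes known for CTCF-dependent promoter choice, held one of TDG KO list 1. RNA of Hoxd13, Pcdhga1, Xist and Tsix averaged under 1 FPKM and was not tested. The other 27 loci, H19, Igf2, Kcnq1ot1, Peg3, Rhox5, Pou5f1, Sox2 and Tdg among them, had none within 10 kb.

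Of 25 genes of CTCF, cohesin and their partners found in the table, 11 had a single-KO-list region within 10 kb (share of all genes not counted). Nipbl and Mau2, the cohesin loader, had 2 each. RNA of the 25 genes was mostly lower in TDG KO: 13 of 24 tested genes were called lower and 5 higher, with a median log2 change of -0.28. Over all tested genes 29.5% were called lower and 24.4% higher, with a median of -0.044. Rad21, the cleaved subunit of cohesin, fell by 0.47 and Smc1b, the meiotic cohesin subunit, was higher by 2.16. Of these 2, Rad21 had a region within 10 kb and Smc1b had none.

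Of 20 genes that make, read or remove oxidised cytosine or repair the gap left behind, 6 had a single-KO-list region within 10 kb (share of all genes not counted). Lig3, a DNA ligase of chromosome 11, had 3, and its RNA was 36.3 and 33.8 FPKM in TDG KO, against 21.0 and 21.1 FPKM in WT (log2 change 0.71). Uhrf1, which guides maintenance methylation, had 2 and was not called (log2 change -0.16, limma, adjusted p = 0.071). Of the 19 tested, 5 were called higher and 11 lower, with a median log2 change of -0.29, beside 24.4% and 29.5% of all tested genes. The 11 include Tdg itself (log2 change -2.31), the gene knocked out, whose lower RNA follows from the design.

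Markers of the cells themselves were present in both genotypes. Of 10 embryonic stem cell markers, 4 had a single-KO-list region within 10 kb (share of all genes not counted). Their summed RNA was 6207 and 6391 FPKM in TDG KO, against 8096 and 8894 FPKM in WT, and 2 were called higher and 5 lower (median log2 change -0.33), beside 24.4% and 29.5% of all tested genes (median -0.044). None of 12 fibroblast markers, which would mark feeder cells, had a region nearby (share of all genes not counted). Their summed RNA was 487.9 and 551.6 FPKM in TDG KO, against 579.4 and 417.4 FPKM in WT. Without Vim, which made up most of the TDG KO sums, the other 11 summed to 169.5 and 197.8 FPKM in TDG KO, against 331.0 and 213.7 FPKM in WT. Of the 11 tested, 1 was called higher (Vim) and 7 lower (median log2 change -0.62), beside the same shares of all genes, and no marker of the list was at 0. RNA of fibroblast markers was thus found in all 4 RNA libraries, and its part in the CTCF lists was not tested.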

How the data were processed

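CTCF ChIP-seq (4 libraries) and RNA-seq (4 libraries) of TDG KO and WT mouse embryonic stem cells were used. The authors deposited 1 CTCF peak list per library with a score per peak, and a table of FPKM values per library. No source used here states the meaning of the score, the control or the threshold. The FPKM means of the authors' own comparison matched the library values in 46937 of 46939 genes (relative tolerance 0.001). Per the submitters' processing notes, the tools were MACS2 2.2.1, Bowtie2 2.2.9, deepTools, Cufflinks 2.2.1, TopHat2 2.1.1 and Cuffdiff, with the mm10 build and no roles stated. Read depth of the CTCF and RNA libraries is unknown, so precision is judged from the replicates. Whether RNA reads were counted by strand is stated nowhere in these sources, and RNA of overlapping or antisense genes (Xist and Tsix) and of close copies is uncertain.

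Peaks were merged at 1 bp of overlap, and scores were turned into percentiles within their own list. The merging and the RNA test were checked on simulated data. Starts, gene spans, strands and promoter windows came from RefSeq (GRCm38.p6); coordinates are mm10 and 1-based. RNA values were taken as log2(FPKM + 1) and fitted by limma (3.58.1, R 4.3.3, trend on) for genes with a mean of at least 1 FPKM, 2-sided, with Benjamini-Hochberg adjustment over 12035 genes at 0.05. Fold changes on this scale understate those of low genes. Intervals are exact 95% binomial (Clopper-Pearson).

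The members, gene lists and loci were chosen with earlier results of these data known. The naming rule took the 4 highest and 2 lowest regions by score percentile per TDG KO list, regions no further than 10 kb off any of 38 loci, and, of called genes with a region at a start, the 12 highest and 12 lowest with a mean of at least 5 FPKM and groups that do not overlap. It also took their promoter sequences; none of those held a core, so 4 with a core were added after seeing the values. Genes of the 4 lists and other windows with a core were likewise named after seeing their values. Alternatives changed the merging, list length, threshold, distances, motif, filter, pseudocount, scaling, trend, replicate block and each replicate left out. A planned motif search in the peaks themselves was not run, since no genome sequence was used.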

Additional observations from a re-analysis of the deposited data

How the results depend on the processing

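The count of 7104 single-KO-list regions stayed within 1.5 times under every other alternative run, but was 2163 with lists of equal length; leaving out each replicate gave 7754 to 9573. The WT count of 1830 was 822 without the lowest-scoring 10% of each list, 3737 with equal lists, 1130 on autosomes, 1138 without the X chromosome, and 723 to 2515 leaving out each replicate. Their ratio of 3.88 was 4.17 with peaks joined across 500 bp, 6.56 with the stricter threshold, 0.579 with equal lists (reversed; by construction this drops more TDG KO than WT peaks), 6.07 on autosomes, 3.32 without chromosome 11, 6.08 without the X chromosome and 3.76 to 10.8 leaving out each replicate. Those last ratios set 2 lists of one genotype against 1 of the other and cannot be compared with 3.88. Leaving out a TDG KO list also turns regions of both TDG KO lists into single ones by construction.

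The median score percentile over both lists, 7.86, was 8.38 at 500 bp, 7.44 with the stricter threshold, 6.32 with equal lists and 8.24 to 13.4 leaving out each replicate. The share at starts, 6.07%, was 5.09% with equal lists, 19.6% at 5 kb and 5.61 to 6.68% leaving out each replicate. The share with a nearby peak, 9.59%, was 5.69% at 200 bp and 20.6% at 2000 bp. The core share of 16.3% was 5.23% with the stricter core. Except where a distance or motif was changed by construction, the cause was not tested.

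For RNA, the median of the member genes moved around 0: 0.013 with no filter, -0.013 at a mean of at least 5 FPKM, 0.032 with upper-quartile scaling, -0.037 without chromosome 11, and -0.0067 to 0.0093 leaving out each replicate. Calls among member genes numbered 100 to 145 and among all genes 4819 to 6696. Over all genes 3236 were called higher and 3167 lower with upper-quartile scaling, and 3345 and 2886 with no filter, against 2942 and 3554 in the report. The 24 named genes kept direction and call throughout. The replicate block, which changed no call of a named gene, gave 145 member and 6696 total calls; the numbers are not known to pair samples (correlation of deviations -0.016 for equal numbers). Unknown read depth limits every count of single-list regions.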
